A study of Caenorhabditis elegans with 9 samples.

Results

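The cytochrome P450 family of Caenorhabditis elegans was examined after exposure to sodium arsenite. Its members were taken as the genes whose symbol begins with cyp- and to which at least 1 probeset of the Affymetrix C. elegans array is assigned alone, and where a gene had several, its brightest by the mean of the 9 arrays stood for it. This gave 73 P450 genes among the 17118 genes tested. The RefSeq gene table lists 80 cyp genes. Of the other 7, 4 (cyp-13A11, cyp-13A12, cyp-25A4 and cyp-25A5) share a probeset with another cyp gene and 3 (cyp-13A9, cyp-25A3 and cyp-35D2) have none assigned, and 3 measured members (cyp-29A1, cyp-31A1 and cyp-34A3) are annotated as pseudogenes. Wild type N2 worms grown in CeHM, a liquid medium, were left unexposed (control, 3 arrays) or exposed for 6 h at 22 °C to sodium arsenite at 0.003% (low dose, 3 arrays) or 0.03% w/v (high dose, 3 arrays). The labels give the larval stage as L3, whereas the methods give L1 and the results L4. RNA came from whole worms, so fewer cells of a type and less RNA per cell cannot be told apart.

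P450 enzymes are haem-containing monooxygenases that sit mostly in the membrane of the endoplasmic reticulum and insert an oxygen atom into fatty acids, steroids and foreign compounds. They take their electrons from NADPH through a reductase, and cytochrome b5 can serve as a further donor. In C. elegans many of them are expressed in the intestine, where they carry out the first phase of detoxification, and others make lipid signals or lipids of the egg. Animal P450s fall into clans. The CYP2 and CYP3 clans hold most enzymes that act on foreign compounds, the CYP4 clan is known for fatty acid hydroxylation, and the mitochondrial clan has 1 member here, cyp-44A1.

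The values are log2 signals. Levels of different genes are not set against each other, because each probeset binds with its own strength. A gene counted as up or down regulated when it passed both thresholds in limma, an adjusted p of 0.05 over all 17118 genes and a 1.2 fold change. A gene is called dim where its lowest group mean was below 6.26, the level under which the dimmest 25% of genes lie. Many P450 genes were dim, 35 of 73 (47.9%) against 29.7% of all genes. At the high dose the median SE of the log2 fold change was 0.69 for the dim and 0.21 for the other P450 genes, so that small changes of dim members could not be detected with 3 arrays per group. Of the dim members 4 of 35 were differentially expressed at the high dose (11.4%, against 5.95% of all dim genes), and of the other members 12 of 38 (31.6%, against 25.9% of all genes that were not dim). The labels and methods speak of biological replicates and of separate RNA isolations for each condition. Whether the cultures were separate is not stated in the sources used here, so the p-values cover the spread among these isolations.

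Markers of tissues and of the moulting cycle moved with the high dose, and some tissue markers also with the low dose. All 9 moulting cycle genes were down regulated, with a median log2 fold change of -1.01, and their summed log2 signal was 16.09 to 16.24 in control arrays and 15.05 to 15.37 at the high dose. Among 7 measured intestine markers 3 fell and 1 rose at the high dose, with a median log2 fold change of -0.29. The summed signal was 15.63 to 15.65 in control and 14.93 to 15.12 in high dose arrays. Signals are added on the linear scale, so the brightest genes weigh most in a sum. In the intestine list act-5 was the brightest in control worms, and its log2 fold change was -1.44. Markers of the germ line (3 of 6), of oocytes and yolk (6 of 8) and of sperm (1 of 5) were down regulated, and none of the markers of these 3 lists was up regulated. Over all genes the test called 9.0% up and 11% down at this dose. The summed signal of control and high dose arrays was 14.54 to 14.66 and 13.95 to 14.06 for the germ line list, 14.50 to 14.70 and 13.61 to 13.90 for the oocyte and yolk list, and 14.53 to 14.73 and 14.21 to 14.42 for the sperm list. At the low dose the summed signal was 13.54 to 13.73 for the oocyte and yolk list, 14.29 to 14.34 for sperm and 14.43 to 14.49 for the germ line. It was 15.50 to 15.56 for the intestine and 16.22 to 16.32 for the moulting cycle. All but the last lay below the control arrays. Of the oocyte and yolk list 2 genes of 8 were down regulated at this dose, of the sperm list 1 of 5 and of the other 3 lists 0. The same test called 0.508% of all genes down. None of these markers was dim in every group. The part of these shifts in the P450 results was not tested.

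At the high dose P450 genes changed in either direction. Of 73 members, 8 rose and 8 fell (21.9%), and the same test called 20.0% of all genes, 9.0% up and 11% down. Their median log2 fold change was -0.08, against -0.05 for all genes. The changes ran from -2.63 for cyp-35B1 to 3.81 for cyp-13A5. The arrays of the high dose and control did not overlap for 26 members (35.6%), against 38.4% of all genes. An unadjusted p under 0.05 was found for 25 members (34.2%), against 31.5% of all genes.

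**Figure D1:**
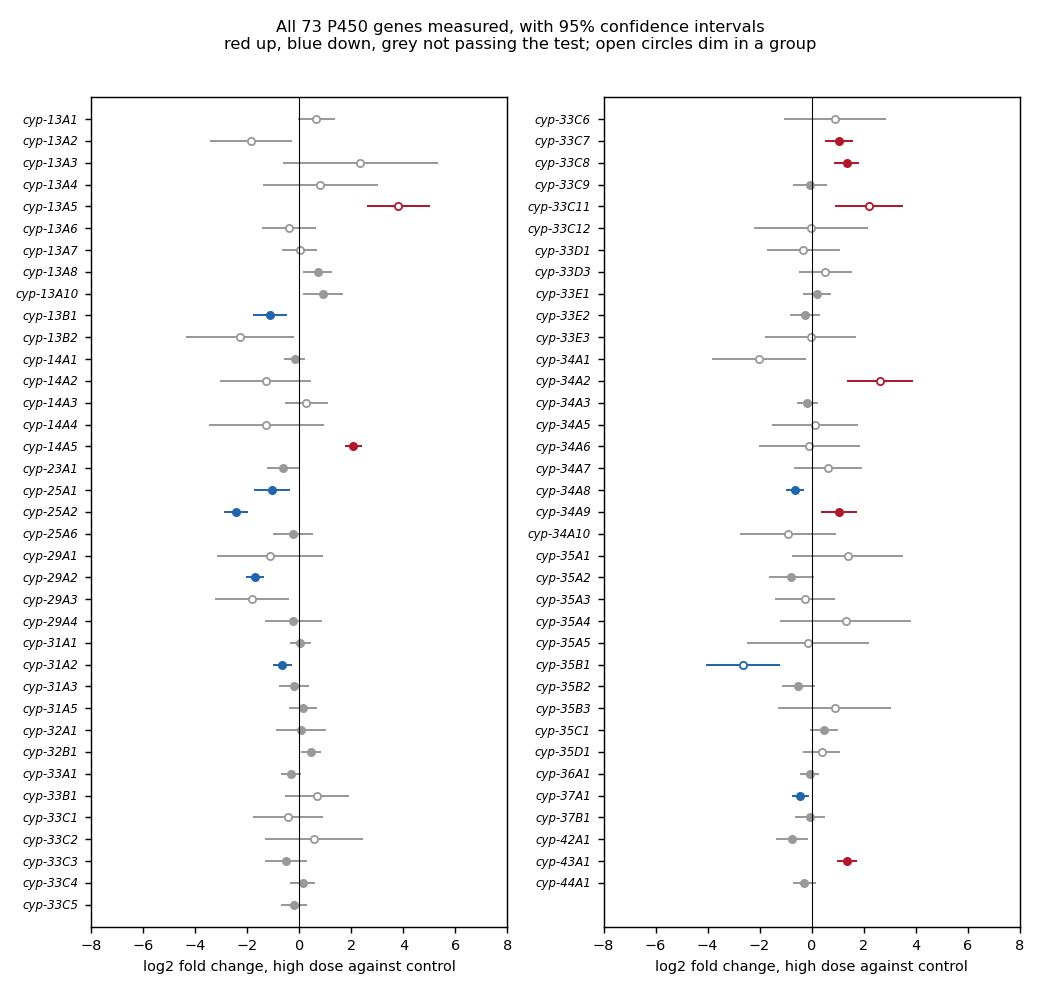
Log2 fold change at the high dose against control (horizontal axis) for the 73 P450 genes, with 95% confidence intervals from limma. Red and blue mark the 8 genes called up and the 8 called down, grey the rest, and open circles the 35 dim genes, whose intervals are mostly the widest.

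The largest increase was that of cyp-13A5, a member of the CYP3 clan. Its level was 6.46, 4.36 and 5.62 in the control arrays, 7.52, 7.14 and 6.83 at the low dose and 9.28, 8.95 and 9.63 at the high dose. The groups did not overlap, and the control mean was dim. Its log2 change at the high dose was 3.81 (± 0.50 SE, limma adjusted p = 0.00157), and it lay between 3.25 and 4.30 with 1 array left out at a time. Of its subfamily cyp-13A, 9 members were measured, and it was the only one of these that passed the test at the high dose. Over all genes the test called 9.0% up and 11% down at this dose. With the dimmest 25% of genes left out, cyp-13A8 and cyp-13A10 also passed as up regulated.

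The gene cyp-14A5, of the CYP2 clan, had the smallest adjusted p of the family. Its level was 9.98, 9.83 and 9.79 in control worms, 10.10, 10.22 and 9.91 at the low dose and 12, 12.01 and 11.80 at the high dose. The high dose arrays lay above all others, while the low dose and control arrays overlapped. The increase at the high dose was 4.21 fold (log2 change 2.07 ± 0.13 SE, limma adjusted p = 4.19e-05). The probeset of cyp-14A5 is marked _s_at, which means that it can also detect related transcripts. The other 4 cyp-14A genes had log2 fold changes between -1.29 and 0.27, and none of these passed the test, where 20.0% of all genes did.

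In the CYP3 clan cyp-43A1 rose 2.57 fold at the high dose. Its level was 9.63, 9.67 and 9.42 in control worms, 9.78, 10.02 and 9.69 at the low dose and 10.81, 10.87 and 11.14 at the high dose (log2 change 1.36 ± 0.15 SE, limma adjusted p = 5.97e-04 for the high dose). Every high dose array was above every other array, and every low dose array was above every control array.

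Among the 11 measured members of cyp-33C, the largest subfamily here, 3 rose and 0 fell at the high dose. Of all genes 9.0% rose and 11% fell at this dose. The level of cyp-33C8 was 9.58, 9.33 and 9.25 in control worms, 9.82, 9.23 and 9.68 at the low dose and 10.85, 10.85 and 10.49 at the high dose, an increase of 2.54 fold (± 0.19 SE on the log2 scale, limma adjusted p = 0.00248). That of cyp-33C7 was 9.70, 9.30 and 9.18 in control worms, 9.14, 9.60 and 8.94 at the low dose and 10.54, 10.47 and 10.32 at the high dose (2.07 fold, ± 0.21 SE on the log2 scale, limma adjusted p = 0.0110). In both genes only the high dose arrays stood apart. The third, cyp-33C11, was dim, at 4.21, 2.46 and 3.85 in control worms, 4.12, 4.07 and 3.68 at the low dose and 4.93, 6.55 and 5.67 at the high dose (log2 change 2.21 ± 0.54 SE, limma adjusted p = 0.0253). The remaining 8 members of cyp-33C were not called at the high dose.

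The subfamily cyp-34A held members that changed in opposite directions. The dim gene cyp-34A2 was at 4.77, 6.21 and 5.21 in control worms, 5.83, 7.27 and 5.59 at the low dose and 7.81, 7.85 and 8.40 at the high dose (log2 change 2.62 ± 0.52 SE, limma adjusted p = 0.0113). For cyp-34A9 the values were 6.97, 7.02 and 7.23 in control worms, 8.02, 8.14 and 7.06 at the low dose and 8.15, 8.31 and 7.92 at the high dose (log2 change 1.05 ± 0.28 SE, limma adjusted p = 0.0381). One low dose array of cyp-34A9 lay among the controls and the others near the high dose arrays. The level of cyp-34A8 was 8.55, 8.32 and 8.50 in control worms, 8.69, 8.52 and 8.34 at the low dose and 7.67, 7.92 and 7.86 at the high dose and fell by 0.64 on the log2 scale (± 0.14 SE, limma adjusted p = 0.0151). Of 9 measured members 2 were thus up regulated and 1 down regulated, where the test called 9.0% of all genes up and 11% down. The calls of cyp-34A8, cyp-33C11 and cyp-34A9 depended on individual arrays. That of cyp-34A8 was lost without high dose replicate 1 or control replicate 1 or 3 (limma adjusted p up to 0.0567), that of cyp-33C11 was lost without high dose replicate 2 or 3 or control replicate 2 or 3 (limma adjusted p up to 0.0727), and that of cyp-34A9 without any 1 of the high dose or control arrays (limma adjusted p up to 0.112).

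**Figure D2:**
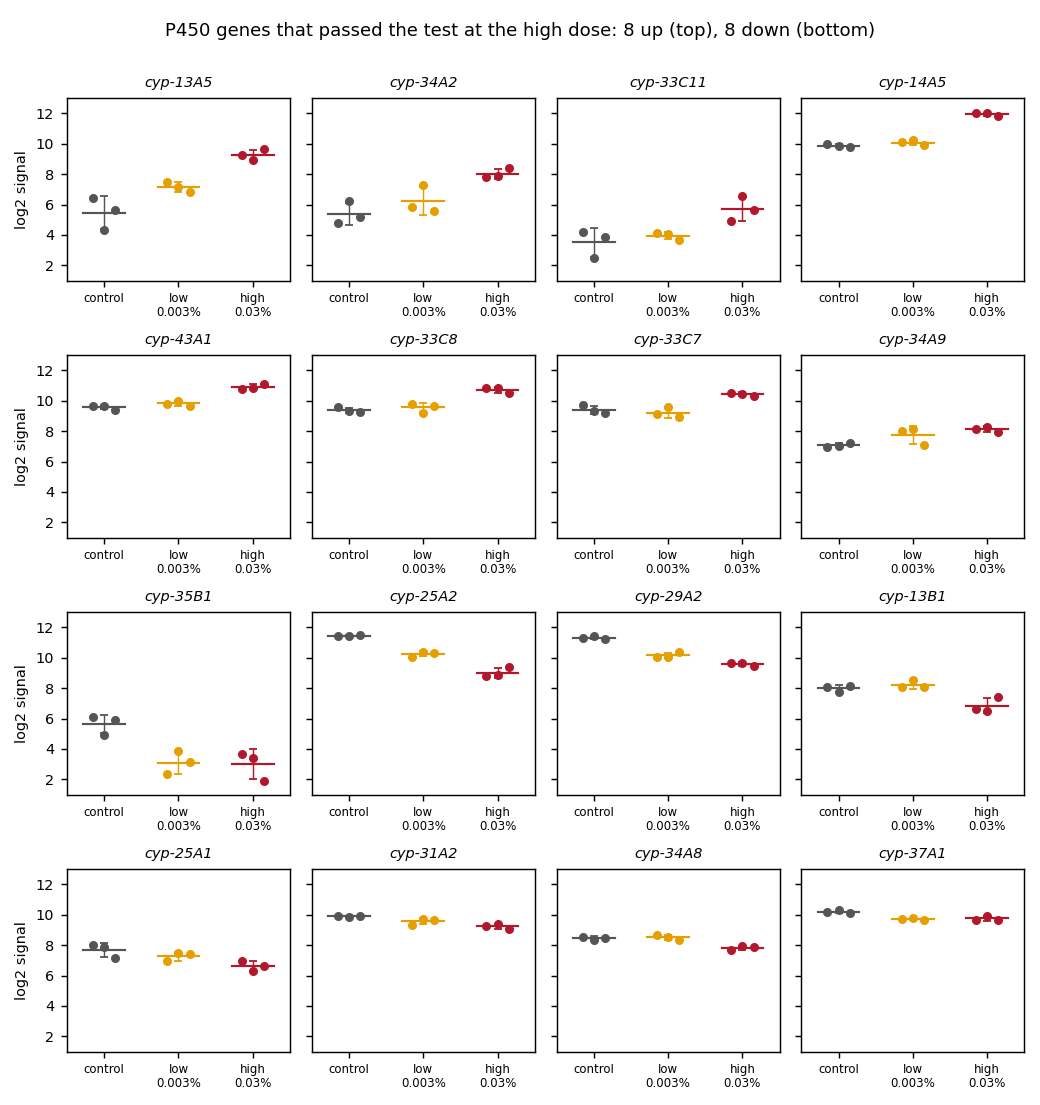
Log2 signal (vertical axis) of each array for the 16 P450 genes that passed the test at the high dose, with horizontal lines at the group means and bars of 1 SD (n = 3). The upper 8 genes rose and the lower 8 fell, and in cyp-13A5, cyp-43A1, cyp-25A2 and cyp-29A2 the low dose arrays lie between the other groups without overlap.

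Of the cyp-25A subfamily 2 of 3 measured genes were down regulated at the high dose, and of cyp-29A 1 of 4, against 11% of all genes. The level of cyp-25A2, of the CYP3 clan, was 11.42, 11.45 and 11.53 in control worms, 10.07, 10.36 and 10.35 at the low dose and 8.80, 8.87 and 9.41 at the high dose. It decreased by 2.44 on the log2 scale at the high dose (± 0.18 SE, limma adjusted p = 1.08e-04). Its chromosomal neighbour cyp-25A1 was at 8.0, 7.87 and 7.17 in control worms, 6.94, 7.46 and 7.39 at the low dose and 6.95, 6.32 and 6.64 at the high dose and fell by 1.05 on the log2 scale (± 0.27 SE, limma adjusted p = 0.0339). The call of cyp-25A1 was lost without low dose replicate 3, high dose replicate 2 or 3 or control replicate 1 or 2 (limma adjusted p up to 0.107). The remaining measured member, cyp-25A6, lies on another chromosome and had a log2 fold change of -0.25, which did not pass the test.

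In the CYP4 clan 3 of 13 members fell at the high dose and 0 rose, where 11% of all genes fell and 9.0% rose. The level of cyp-29A2 was 11.33, 11.42 and 11.23 in control worms, 10.07, 10.06 and 10.36 at the low dose and 9.69, 9.67 and 9.47 at the high dose. The 3 groups did not overlap, and it decreased by 1.71 on the log2 scale at the high dose (± 0.13 SE, limma adjusted p = 1.18e-04). The gene cyp-31A2, needed with cyp-31A3 for making the lipids of the eggshell, was at 9.89, 9.84 and 9.94 in control worms, 9.34, 9.70 and 9.65 at the low dose and 9.26, 9.41 and 9.05 at the high dose (decreased by 0.65 on the log2 scale, ± 0.14 SE, limma adjusted p = 0.0166). Its probeset is marked _x_at and may bind unrelated transcripts, and cyp-31A3 had a log2 fold change of -0.22, which did not pass the test. Among oocyte and yolk markers, 6 of 8 fell at this dose, and a link of these to cyp-31A2 was not tested. The level of cyp-37A1 was 10.18, 10.29 and 10.12 in control worms, 9.73, 9.81 and 9.64 at the low dose and 9.68, 9.95 and 9.66 at the high dose (decreased by 0.43 on the log2 scale, ± 0.12 SE, limma adjusted p = 0.0425), with both dose groups below all control arrays. The call of cyp-37A1 was lost without any array other than high dose replicate 2 (limma adjusted p up to 0.131), and that of cyp-31A2 without high dose replicate 3 or control replicate 1 or 3 (limma adjusted p up to 0.0567).

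The largest decrease was in the dim gene cyp-35B1, a target of the DAF-16 factor that is raised in long-lived insulin receptor mutants. It was at 6.08, 4.93 and 5.92 in control worms, 2.35, 3.85 and 3.12 at the low dose and 3.70, 3.43 and 1.90 at the high dose (decreased by 2.63 on the log2 scale at the high dose, ± 0.59 SE, limma adjusted p = 0.0180). The low dose arrays were as low as the high dose arrays, but the low dose log2 change of -2.54 did not pass the test (limma adjusted p = 0.119). The level of cyp-13B1 was 8.08, 7.73 and 8.15 in control worms, 8.09, 8.53 and 8.06 at the low dose and 6.65, 6.52 and 7.39 at the high dose (decreased by 1.14 on the log2 scale, ± 0.26 SE, limma adjusted p = 0.0199). The probeset used for cyp-13B1 is marked _x_at. Its other probeset differed by 0.25 at the high dose (± 1.01 SE, limma adjusted p = 0.91 in a fit of all probesets other than controls). With the mean of both cyp-13B1 probesets the difference did not pass the test (log2 fold change -0.44, limma adjusted p = 0.678). The call of cyp-35B1 was lost without control replicate 1 or 3 (limma adjusted p up to 0.0636), and that of cyp-13B1 without either of these or high dose replicate 1 or 2 (limma adjusted p up to 0.0691). Without control replicate 3 the down regulated members numbered 3 rather than 8, and without control replicate 1 they numbered 4, of which 2 were among the 8.

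At the low dose 2 of 73 members changed, cyp-25A2 and cyp-29A2, both down regulated (2.74%, against 1.55% of all genes, of which 1.05% were up and 0.508% down). Both doses were set against the same 3 control arrays. No P450 gene was up regulated at the low dose in limma. An unadjusted p under 0.05 was found for 11 members (15.1%, against 11.7% of all genes). These moved in both directions and include the 2 called decreases. The gene cyp-29A2, whose array values are given above, decreased by 1.16 on the log2 scale (± 0.13 SE, limma adjusted p = 0.00554), and cyp-25A2 decreased by 1.21 on the log2 scale (± 0.18 SE, limma adjusted p = 0.0207). The arrays of the low dose and control did not overlap for 12 members (16.4%), against 18.2% of all genes. The call of cyp-25A2 was lost when any 1 of the 6 low dose and control arrays was left out (limma adjusted p up to 0.0941), which left 1 member down regulated.

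The low dose changes of the genes that rose at the high dose were small or imprecise. For cyp-14A5 the 95% confidence interval of the low dose log2 fold change was -0.09 to 0.50, for cyp-43A1 it was -0.09 to 0.59, for cyp-33C8 -0.26 to 0.64 and for cyp-33C7 -0.65 to 0.32. These intervals leave out a doubling of any of the 4 genes. The dim gene cyp-13A5 had a low dose log2 fold change of 1.68 (± 0.50 SE, limma adjusted p = 0.222) with an interval of 0.52 to 2.85, and all 3 low dose arrays were above the controls. The gene cyp-36A1, which acts downstream of the oxygen sensor EGL-9 and HIF-1, was at 8.49, 8.32 and 8.30 in control worms, 7.57, 7.74 and 7.85 at the low dose and 8.29, 8.48 and 8.09 at the high dose. Its low dose arrays were below all others, and the low dose difference of -0.65 had a limma adjusted p = 0.0904.

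Between the doses 12 members differed (16.4%, against 16.8% of all genes), 7 higher and 5 lower at the high dose, where the test called 7.34% and 9.49% of all genes. The arrays of both doses did not overlap for 27 members (37%), against 34% of all genes, and 25 had an unadjusted p under 0.05, against 28.8% of all genes. The higher ones were cyp-13A5, cyp-14A5, cyp-33C7, cyp-33C8, cyp-43A1, cyp-32B1 and cyp-36A1. The difference was 2.12 on the log2 scale for cyp-13A5 (± 0.50 SE, limma adjusted p = 0.0254), 1.86 for cyp-14A5 (± 0.13 SE, limma adjusted p = 1.41e-04), 1.22 for cyp-33C7, 1.15 for cyp-33C8 and 1.11 for cyp-43A1. The CYP4 clan gene cyp-32B1 was at 9.01, 8.70 and 8.90 in control worms, 8.30, 8.64 and 8.60 at the low dose and 9.16, 9.43 and 9.35 at the high dose. Its low dose arrays lay below the controls and its high dose arrays above them, and the doses differed by 0.80 (± 0.15 SE, limma adjusted p = 0.00908). Neither dose of cyp-32B1 passed the main test against control. Its high dose rise of 0.44 (limma adjusted p = 0.0759) did pass with quantile normalization, median centring or either filter on dim genes. The probeset of cyp-32B1 is marked _s_at. The gene cyp-36A1 was 0.57 higher at the high than at the low dose (± 0.14 SE, limma adjusted p = 0.0310) and passed neither main test against control. The call of cyp-36A1 was lost without any 1 of low dose replicates 1, 2 and 3, high dose replicates 1 and 2 or control replicates 2 and 3 (limma adjusted p up to 0.0946), and that of cyp-13A5 without any 1 of the high dose arrays or low dose replicate 2 or 3 (limma adjusted p up to 0.0828).

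Lower at the high than at the low dose were cyp-25A2, cyp-29A2, cyp-13B1, cyp-34A8 and cyp-23A1. A stepwise fall, with each of the 3 comparisons passing the test, was seen in cyp-25A2 and cyp-29A2, whose differences between the doses were -1.23 (± 0.18 SE, limma adjusted p = 0.00351) and -0.55 (± 0.13 SE, limma adjusted p = 0.0265). The log2 difference was -1.38 for cyp-13B1 (limma adjusted p = 0.0104) and -0.70 for cyp-34A8 (limma adjusted p = 0.0121), both of which overlapped between the low dose and control. With the mean of both cyp-13B1 probesets this difference did not pass the test either (-1.18, limma adjusted p = 0.236). The level of cyp-23A1 was 7.46, 8.14 and 8.09 in control worms, 8.15, 7.92 and 8.45 at the low dose and 7.0, 7.27 and 7.54 at the high dose, with a difference between the doses of -0.90 (± 0.24 SE, limma adjusted p = 0.0420). The probeset used for cyp-23A1 is marked _x_at. Its other probeset differed by -0.29 (limma adjusted p = 0.659 in a fit of all probesets other than controls). With the mean of both probesets, or with median centring, the difference did not pass the test. The call of cyp-23A1 was lost when any array other than control replicate 1 was left out (limma adjusted p up to 0.126), and that of cyp-29A2 without any 1 of the high dose arrays or low dose replicate 3 (limma adjusted p up to 0.0802). With low dose replicate 3 or high dose replicate 3 left out, 3 members were lower rather than 5.

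Several P450 genes with a known role passed no test. The cyp-35A subfamily, known for induction by many foreign compounds, had 5 measured members, and none of these was called in any of the 3 comparisons. Of all genes 20.0% were called at the high dose, 1.55% at the low dose and 16.8% between the doses. Among all dim genes 5.95% were called at the high dose, so few calls would be found among 5 mostly dim genes in any case. The level of cyp-35A2, which is linked to fat storage, was 8.91, 8.87 and 8.17 in control worms, 8.15, 7.25 and 8.34 at the low dose and 8.15, 7.39 and 8.05 at the high dose. Its high dose log2 fold change was -0.78 (95% confidence interval -1.62 to 0.05, limma adjusted p = 0.186). The other 4 cyp-35A members were dim, and their high dose changes lay between -0.26 for cyp-35A3 and 1.38 for cyp-35A1. Among these cyp-35A4, chosen after its values were seen, was at 6.12, 1.73 and 5.29 in control worms, 2.60, 2.62 and 2.43 at the low dose and 5.73, 4.81 and 6.56 at the high dose. The doses did not overlap and the controls overlapped both, and the difference between the doses of cyp-35A4, the largest of the family, did not pass the test (log2 change 3.15 ± 1.06 SE, limma adjusted p = 0.0905). It passed without control replicate 2, with a variance trend and in the fit of both dose groups alone. The genes cyp-29A3 and cyp-33E2 make eicosanoids from polyunsaturated fatty acids. The level of cyp-29A3 was dim, at 4.31, 6.30 and 6.53 in control worms, 5.17, 4.80 and 4.53 at the low dose and 3.28, 3.91 and 4.49 at the high dose (log2 change -1.82 ± 0.60 SE, limma adjusted p = 0.0750). One control array of cyp-29A3 lay among the treated arrays, and without that array, control replicate 1, the decrease passed the test (limma adjusted p = 0.00644). The level of cyp-33E2 was 8.20, 8.41 and 8.51 in control worms, 8.26, 9.13 and 8.75 at the low dose and 8.03, 7.96 and 8.36 at the high dose, and the groups overlapped. The mitochondrial clan gene cyp-44A1 had a high dose log2 fold change of -0.29 with an interval of -0.69 to 0.12, and cyp-37B1 one of -0.06 with an interval of -0.60 to 0.49.

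Seen by clan, 6 of 44 CYP2 clan members rose and 2 fell at the high dose, 2 of 15 CYP3 clan members rose and 3 fell, and 0 of 13 CYP4 clan members rose and 3 fell, while the test called 20.0% of all genes, 9.0% up and 11% down. Their median log2 fold changes were -0.05, 0.01 and -0.24. The single mitochondrial clan member was not called. The difference between the clans was not tested.

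Many P450 genes lie side by side, and neighbours did not always change together. By the RefSeq annotation, 42 of the 73 members lie in runs of cyp genes with at most 2 other protein-coding genes between them. The longest run, of 10 genes on chromosome V, holds cyp-35A5, cyp-35B1, cyp-35B2, cyp-35B3 and cyp-34A5 to cyp-34A10. At the high dose cyp-35B1 and cyp-34A8 fell and cyp-34A9, which is next to cyp-34A8, rose, while the other 7 were not called. In the run of cyp-13A genes on chromosome II cyp-13A5 rose and the other 7 measured genes had log2 fold changes between -1.85 for cyp-13A2 and 2.33 for cyp-13A3, none of which passed the test. Of the run of cyp-33C3 to cyp-33C7, 1 gene of 5 (cyp-33C7) was up regulated. In the run on chromosome III, which also holds cyp-25A3, a gene without a probeset, cyp-25A1 and cyp-25A2 were called at the high dose. It was the only run of at least 2 measured genes in which every measured gene was called. The call of cyp-25A1 was lost without single arrays, as given above. Over all genes the test called 20.0% at this dose, 9.0% up and 11% down. The related genes of a run can share probe sequences, so the separation of their signals is limited by the array, and this was not tested.

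**Figure D3:**
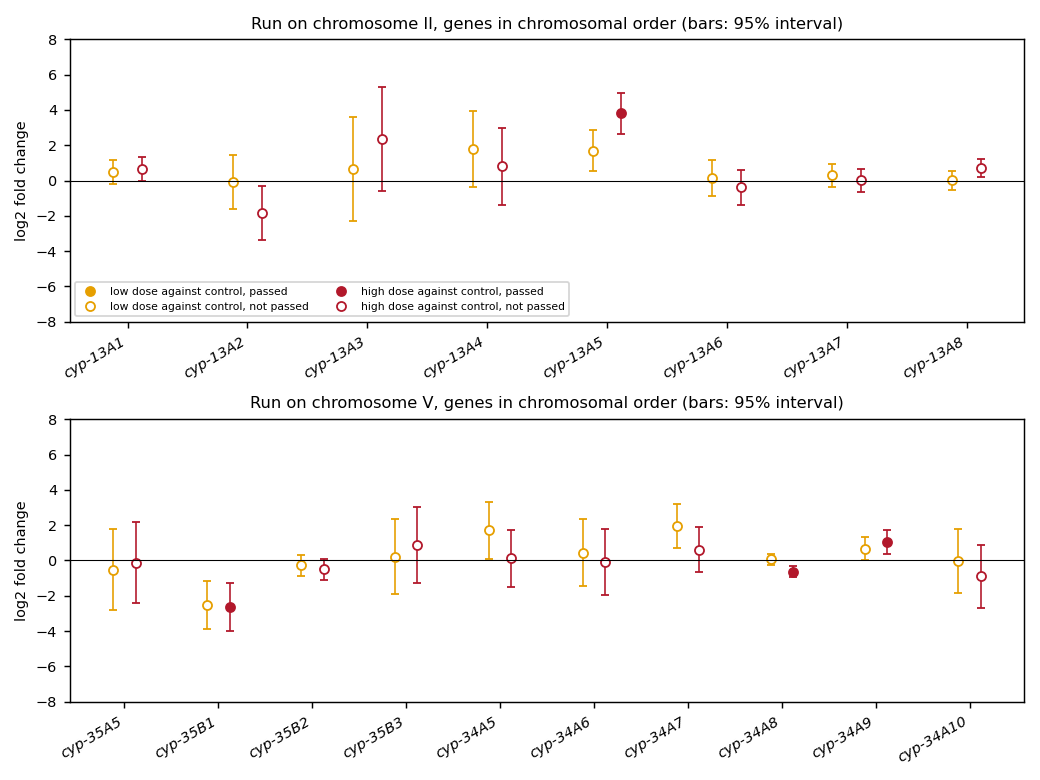
Log2 fold changes against control (vertical axis) at the low dose (orange) and high dose (red), with 95% confidence intervals, for the 8 measured genes of the cyp-13A run and the 10 genes of the longest run, in chromosomal order. Filled circles passed the test: cyp-13A5, cyp-34A9 (up), cyp-35B1 and cyp-34A8 (down), all at the high dose.

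Of 6 genes listed for electron supply, 2 rose and 3 fell at the high dose, while the P450 reductase itself did not pass the test. The others on the list are cytochrome b5 genes, predicted cytochrome b5 reductase genes and vem-1. Whether these serve P450 enzymes in the worm was not tested. The level of emb-8, the NADPH cytochrome P450 reductase, was 10.33, 10.33 and 10.11 in control worms, 10.75, 10.20 and 10.39 at the low dose and 9.95, 9.86 and 10.14 at the high dose (log2 fold change -0.27, 95% confidence interval -0.67 to 0.12, limma adjusted p = 0.324). T05H4.4, a predicted cytochrome b5 reductase, was at 7.10, 7.78 and 6.99 in control worms, 8.21, 7.98 and 8.27 at the low dose and 10.05, 10.42 and 10.27 at the high dose. Its rise at the high dose was 7.77 fold (log2 change 2.96 ± 0.22 SE, limma adjusted p = 1.17e-04). The related hpo-19 was at 12.16, 12.33 and 12.02 in control worms, 11.83, 12.08 and 12.10 at the low dose and 11.36, 11.24 and 10.88 at the high dose, and decreased by 1.01 on the log2 scale at the high dose (± 0.16 SE, limma adjusted p = 0.00439). The 2 cytochrome b5 genes also went apart, cytb-5.1 decreasing by 1.05 (± 0.11 SE, limma adjusted p = 4.65e-04) and cytb-5.2 rising by 0.57 on the log2 scale (± 0.13 SE, limma adjusted p = 0.0203). The gene of vem-1, a membrane haem protein, decreased by 0.37 on the log2 scale. Of the 6 genes of this list 2 had thus risen and 3 had fallen at the high dose, where 9.0% of all genes rose and 11% fell. The median log2 fold change of the 6 was -0.32, against -0.05 for all genes. None of the 6 was called by limma at the low dose. The calls of cytb-5.2 and vem-1 were each lost without any 1 of control replicates 1, 2 and 3 or high dose replicates 2 and 3 (limma adjusted p up to 0.0698 and 0.147), and that of vem-1 also without any of the other 4 arrays.

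The P450 gene daf-9 does not carry a cyp name and is no member of the set above. Its product makes dafachronic acids, the steroid hormones that bind the receptor DAF-12. The level of daf-9 was 9.08, 9.01 and 9.26 in control worms, 9.40, 9.57 and 9.20 at the low dose and 8.87, 8.93 and 9.21 at the high dose, and it passed no test (limma adjusted p = 0.675 at the high dose). The oxygenase gene daf-36, which acts early in the same pathway, was at 7.85, 8.20 and 7.57 in control worms and at 5.85, 4.99 and 5.63 at the high dose, a log2 change of -2.38 (± 0.28 SE, limma adjusted p = 9.01e-04). The low dose arrays of daf-36, at 7.65, 7.86 and 7.27, overlapped the controls. The dehydrogenase gene dhs-16 decreased by 0.67 on the log2 scale (± 0.12 SE, limma adjusted p = 0.00726) and the receptor gene daf-12 by 0.38 (± 0.10 SE, limma adjusted p = 0.0391). The nuclear receptor gene nhr-8, whose product takes part in cholesterol balance and in resistance to toxins, rose by 0.81 on the log2 scale (± 0.13 SE, limma adjusted p = 0.00462). The call of daf-12 was lost without low dose replicate 3 or any 1 of the high dose or control arrays (limma adjusted p up to 0.117). With the mean of the probesets of daf-12 it did not decrease (log2 change 0.11, limma adjusted p = 0.756). Of the 7 genes of this pathway 1 had risen and 3, daf-12 among them, had fallen at the high dose. The test called 9.0% of all genes up and 11% down at this dose. The median log2 fold change of the 7 was -0.46, and limma called none of the 7 at the low dose.

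**Figure D4:**
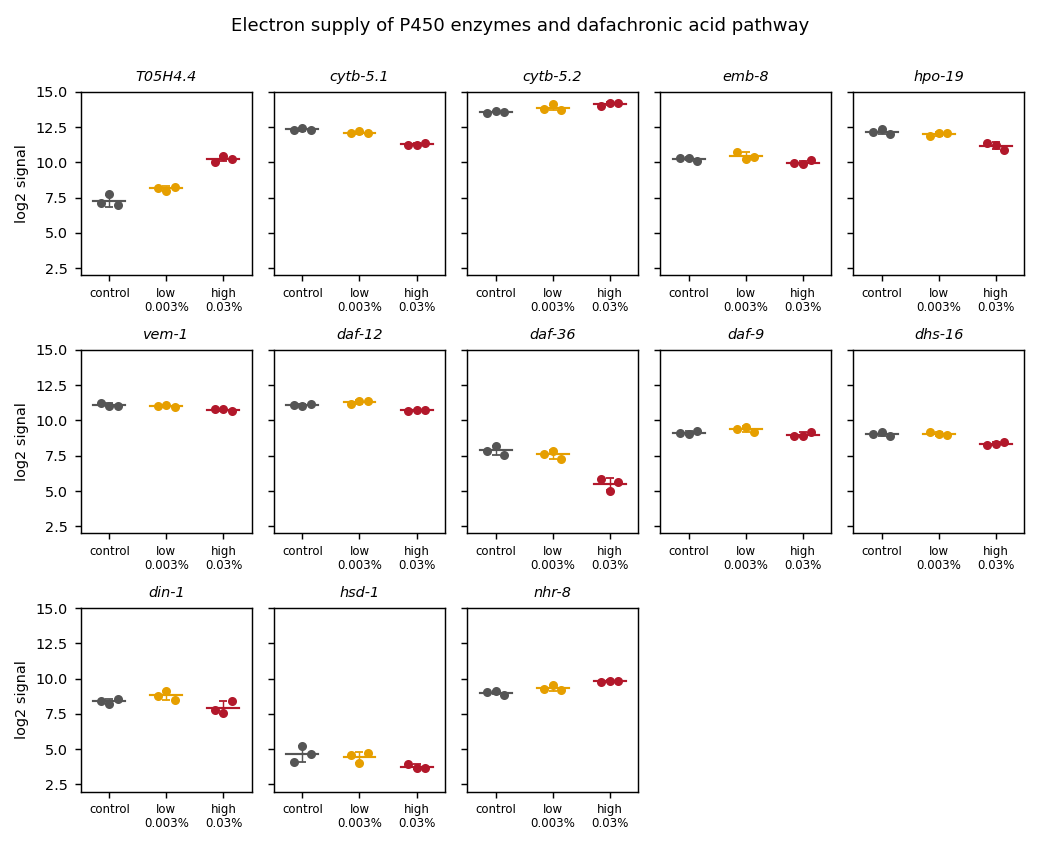
Log2 signal (vertical axis) of each array for the 6 genes listed for electron supply and the 7 genes of the dafachronic acid pathway, with group means and bars of 1 SD (n = 3). T05H4.4 rises and daf-36 falls at the high dose, while emb-8 and daf-9 overlap between control and low dose.

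Of 16 measured regulators of xenobiotic genes, 6 rose and 2 fell at the high dose, where 9.0% of all genes rose and 11% fell, and 1 rose at the low dose, where 1.05% of all genes did. Their median log2 fold change at the high dose was 0.46. The gene called at the low dose was wdr-23, whose product promotes the breakdown of the oxidative stress factor SKN-1. It was at 9.80, 9.42 and 9.50 in control worms, 10.68, 10.34 and 10.75 at the low dose and 11.73, 11.70 and 11.51 at the high dose, and the 3 groups did not overlap (log2 fold change 1.02, adjusted p = 0.0253, at the low and 2.08, adjusted p = 1.26e-04, at the high dose, from limma). At the high dose skn-1 itself rose by 0.87 (± 0.25 SE, limma adjusted p = 0.0473), and pqm-1, sbp-1, xbp-1 and nhr-8 also rose, by 0.63 to 0.90 on the log2 scale. The coactivator gene mdt-15 and rhy-1, a negative regulator of HIF-1, decreased by 0.53 and 0.68 on the log2 scale. Several of these calls depended on single arrays. Leaving out any 1 of 7 arrays ended that of skn-1 (limma adjusted p up to 0.122), any 1 of the high dose or control arrays that of mdt-15 (limma adjusted p up to 0.0829), and any 1 of 6 arrays the low dose call of wdr-23 (limma adjusted p up to 0.107). The aryl hydrocarbon receptor gene ahr-1 passed no test, with a high dose log2 fold change of -0.53 (limma adjusted p = 0.670).

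Other families of detoxification and transport are given beside the P450 genes, and the differences between families were not tested. At the high dose 67.4% of 43 glutathione S-transferases, 60.0% of 5 flavin monooxygenases, 46.9% of 64 UDP-glucuronosyltransferases and 44.8% of 29 transporter genes named pgp-, mrp- or haf- were called. Of the P450 genes 21.9% and of all genes 20.0% were called. At the low dose the shares were 41.9%, 0%, 14.1% and 13.8% in the same order, against 2.74% of the P450 genes and 1.55% of all genes. The glutathione S-transferases had a median log2 fold change of 0.75 at the low and 0.70 at the high dose, where that of the P450 genes was -0.07 and -0.08.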

How the data were processed

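The deposited table holds 1 log2 signal per probeset and array. Before deposit the authors summarized and normalized the probes. Their methods name RMA in Partek Genomics Suite 6.5, whereas the processing notes of these log2 values name Partek 6.4 and MAS5, and 41 values lie below 0. No scaling was added. The median of each array was 8.42 to 8.52. Across genes, which are no independent replicates, Pearson's r between arrays within a group was 0.940 to 0.952.

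The fit left out, of 22625 probesets, 77 controls, 895 that name no gene and 887 that name several. Names follow the RefSeq table of assembly WBcel235, used for names and gene order alone, and 65 identifiers were matched by symbol. Among the P450 genes 5 had several probesets, 6 are represented by an _s_at and 5 by an _x_at probeset.

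Comparisons used limma 3.58.1 in R 4.3.3 (lmFit, eBayes) in one model of the 3 groups, with 6 residual degrees of freedom and a prior of 1.45, and Benjamini-Hochberg adjustment over all genes. The test was checked on simulated data. Tables and figures used Python 3.11.15, pandas 2.3.3 and matplotlib 3.10.9. Members, lists and the rule for named genes were chosen with earlier results of these data known. The rule took the 12 largest changes in each direction per comparison among members called, and 14 genes whatever their test. Alternatives were no variance moderation, other fold thresholds, filters on dim genes, quantile normalization, median centring, the mean of probesets, a variance trend, fits restricted to 2 groups, a block on the replicate number, and leaving out single arrays. The arrays' number, 3 per group, limits the precision. Promoter and protein sequences were not analysed here.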

Additional observations from a re-analysis of the deposited data

Results flagged for a closer look

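The second probeset of cyp-42A1, not used in the comparisons because its mean was lower, changed at the high dose. In a fit of all probesets other than controls its log2 difference was -0.78 against control (± 0.18 SE, limma adjusted p = 0.0206) and -0.83 against the low dose (± 0.18 SE, limma adjusted p = 0.0187). It was at 8.95, 8.95 and 9.04 in control worms, 9.33, 8.66 and 9.09 at the low dose and 8.08, 8.18 and 8.33 at the high dose. The probeset used for cyp-42A1 was at 9.56, 8.92 and 9.24, then 9.56, 8.85 and 9.45, then 8.65, 8.23 and 8.60 in the same order. In the comparison of genes its difference of -0.75 (± 0.25 SE, limma adjusted p = 0.0777) did not pass the test. The second probeset is marked _x_at.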

How the results depend on the processing

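For the 25 named P450 genes 30 results passed the test, and 16 of these passed under every alternative in which the gene was tested. The other 14 were lost under some alternative, and 0 were reversed. At the high dose cyp-13A5, cyp-14A5, cyp-25A2, cyp-29A2, cyp-33C7, cyp-33C8, cyp-34A2 and cyp-43A1 passed throughout, except that dim genes were not tested where a filter left them out. Of 45 results that did not pass, 10 did so under some alternative, among them cyp-42A1 at the high dose (limma adjusted p = 0.0302 with the mean of its probesets).

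With the dimmer 50% of genes left out, 16 members remained to be tested, and 5 rose and 5 fell against control at the high dose, and 3 were lower at the high than at the low dose. With each array left out in turn the high dose counts were 6 to 10 up and 3 to 8 down, the low dose counts 0 to 1 up and 1 to 2 down, and between the doses 5 to 9 members were higher and 3 to 6 lower. The 1 increase at the low dose, of cyp-34A7, was found without control replicate 1. Single arrays also ended the high dose calls of cyp-25A1 (without low dose replicate 3, high dose replicate 2 or 3 or control replicate 1 or 2, limma adjusted p up to 0.107), cyp-13B1 (high dose replicate 1 or 2, control replicate 1 or 3, 0.0691), cyp-31A2 (high dose replicate 3, control replicate 1 or 3, 0.0567), cyp-34A8 (high dose replicate 1, control replicate 1 or 3, 0.0567), cyp-35B1 (control replicate 1 or 3, 0.0636) and cyp-37A1 (any array but high dose replicate 2, 0.131). Under the same alternatives, added for the partner genes after seeing the data, 21 of 29 calls of these genes held in all settings and 8 were lost in some, 1 of them with the sign turned (daf-12 at the high dose, 0.11 with the mean of its probesets).

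The labels give no batch or day for the replicate numbers. Deviations of same-numbered arrays correlated at -0.025 to 0.033, and those of differently numbered arrays of different groups at -0.045 to 0.039. This does not show whether the samples were paired, and the main fit did not pair them. With the replicate number as a block 7 members rose and 7 fell against control at the high dose, 0 rose and 2 fell at the low dose, and 7 were higher and 6 lower at the high than at the low dose. The cause of these differences was not tested.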

Other observations

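The probeset shared by cyp-13A11 and cyp-13A12 entered no comparison of genes. The second of these is known for its part in the response to reoxygenation after hypoxia, downstream of EGL-9 and HIF-1. The shared probeset cannot tell these genes apart, and each of its group means was below the dim level of 6.26. The signal of this probeset was 3.15, 3.29 and 2.57 in control worms, 3.50, 7.42 and 6.31 at the low dose and 3.08, 2.99 and 2.62 at the high dose. All 3 low dose arrays were above every other array, with 1 of them close to the controls, and the low dose log2 difference from control was 2.74 (± 0.88 SE, limma adjusted p = 0.292 over all probesets other than controls), which did not pass the test.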
